A study of Homo sapiens with 4 samples.

Results

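Keratin genes encode the intermediate filament proteins of epithelial cells. The keratin genes described here are the protein-coding genes whose symbol is KRT followed by a number, with or without a letter, so that keratin-associated proteins (KRTAP) and pseudogenes are left out. The rule found 55 genes among 19951 protein-coding genes of GENCODE release 29. The RNA of 4 groups, with 1 library each, was sequenced after removal of ribosomal RNA. Group A was HepG2 cells and group C was Huh7 cells, both before treatment. Group B was HepG2 cells and group D was Huh7 cells, both after sonodynamic therapy (SDT), in which ultrasound activates the sensitizer HMME carried with lonidamine (LND) in targeted nanobubbles. Both lines are established and derive from human liver tumours. Nanobubbles, HMME, LND and ultrasound were given together in groups B and D, so their effects cannot be told apart.

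Keratins fall into an acidic type I and a basic type II, and a filament forms from a pair with 1 partner of each type. Simple, single-layered epithelia such as the liver use KRT8 with KRT18, and bile ducts add KRT7 and KRT19. Stratified epithelia such as the skin use a basal pair that is replaced by other pairs as cells differentiate, and hair has keratins of its own in the shaft and the root sheath. The KRT8 and KRT18 filaments of hepatocytes are known to protect against mechanical and toxic stress, and KRT18 is a substrate of caspases in apoptosis.

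For each cell line, a deposited table gives the genes called differentially expressed by the authors after against before treatment (group B vs. A in HepG2 cells, group D vs. C in Huh7 cells) under each Gene Ontology (GO) term. A keratin gene is called listed here when its Ensembl identifier stood under at least 1 GO term of a table. The tables hold neither a level nor a direction, so a listed keratin gene may have gone up or down. A gene that was not listed may have been unchanged, too low to be called or without GO annotation. With 1 library per group no value has a replicate error, and no test was made. Since the tables hold no levels, the labelled cell type could not be checked against its markers.

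Of the 55 keratin genes, 15 were listed in group B vs. A (HepG2) and 13 in group D vs. C (Huh7). These are 27.3% and 23.6% of the keratin genes, beside 23.9% of all protein-coding genes in HepG2 and 21.9% in Huh7 cells. The family as a whole was therefore listed at a share near that of all genes. In all, 20 keratin genes were listed in at least 1 cell line and 35 in neither, beside 6852 and 13099 of the 19951 protein-coding genes. Both lists held 8 keratin genes, namely KRT4, KRT7, KRT8, KRT10, KRT20, KRT23, KRT34 and KRT78. They made up 53.3% of the HepG2 keratin genes and 61.5% of the Huh7 keratin genes. For all protein-coding genes the shared genes made up 47.7% and 52.2% of the lists.

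The 7 keratin genes listed in HepG2 but not in Huh7 cells were KRT5, KRT15, KRT36, KRT74, KRT79, KRT80 and KRT85. The 5 listed in Huh7 but not in HepG2 cells were KRT13, KRT18, KRT32, KRT86 and KRT222. Of the 19951 protein-coding genes, 2492 were listed in HepG2 cells alone and 2084 in Huh7 cells alone. Whether the change of any of these keratin genes differed between the cell lines was not tested, since being called in a single comparison does not show a difference.

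**Figure D1:**
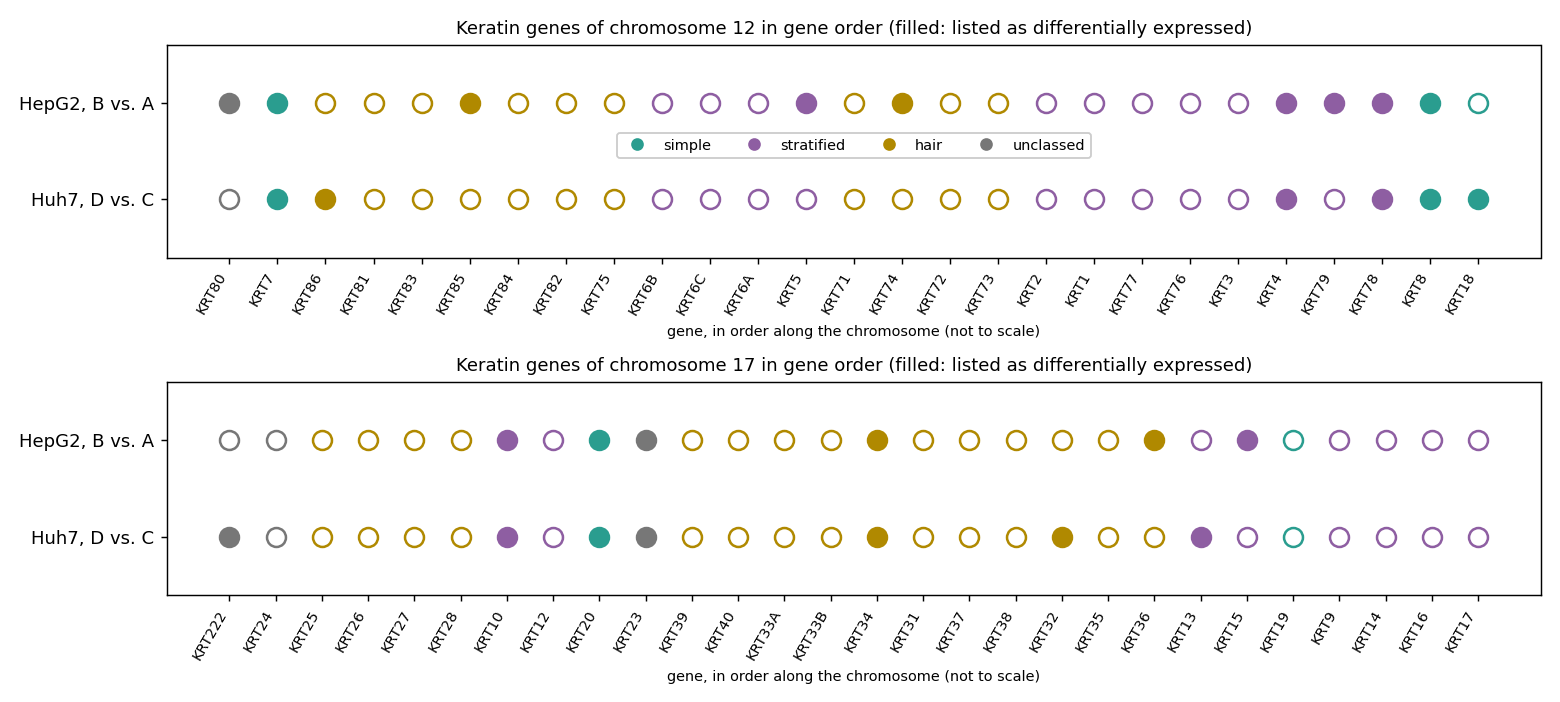
Keratin genes in their order along chromosomes 12 and 17, with a row for HepG2 cells (group B vs. A) and a row for Huh7 cells (group D vs. C); a filled circle is a listed gene, an open circle a gene that was not listed, and the colour gives the class. Of the 55 genes, 15 circles are filled in the HepG2 row and 13 in the Huh7 row, and KRT8 is filled in both while its partner KRT18 is filled in Huh7 cells.

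The simple epithelial keratins were the class with the largest share listed, although it has 5 genes. In HepG2 cells 3 of them were listed, KRT7, KRT8 and KRT20, which is 60% of the class. In Huh7 cells 4 were listed, the same genes and KRT18, which is 80%. All protein-coding genes were listed at 23.9% in HepG2 and 21.9% in Huh7 cells, and the difference was not tested. KRT8 (ENSG00000170421) is the type II keratin of hepatocytes. It was listed in both cell lines and stood under 155 GO terms in each table, a number set by its annotation. KRT18 (ENSG00000111057), the type I partner of KRT8, was listed in Huh7 cells under 151 terms and was not listed in HepG2 cells. KRT7 (ENSG00000135480), a keratin of ducts, was listed in both cell lines, and so was KRT20 (ENSG00000171431), a keratin of the intestinal epithelium and of Merkel cells. KRT19, a keratin of bile ducts and of liver progenitor cells, was the member of this class listed in neither cell line.

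Among the 20 stratified epithelial keratins, 6 were listed in HepG2 cells (30%) against 4 in Huh7 cells (20%). Beside this, 23.9% and 21.9% of all protein-coding genes were listed, and the difference was not tested. The 3 stratified keratins listed in both were KRT4, KRT10 and KRT78. KRT4 is the type II keratin of the mucosa of mouth and oesophagus, KRT10 is the type I keratin of the upper layers of the skin, and KRT78 is a type II keratin described in stratified epithelia. HepG2 cells added KRT5, the type II keratin of basal cells, KRT15, a type I keratin of basal cells, and KRT79, a type II keratin of the sebaceous duct region. Huh7 cells added KRT13, the type I partner of KRT4. The other 13 stratified keratins were listed in neither cell line, beside 13099 of the 19951 protein-coding genes. These 13 keratins were KRT1, KRT2, KRT3, KRT6A, KRT6B, KRT6C, KRT9, KRT12, KRT14, KRT16, KRT17, KRT76 and KRT77. These include the keratins KRT6A, KRT6B, KRT16 and KRT17, which are known to be induced in wounded skin.

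Of the 26 hair keratins, 4 were listed in HepG2 (15.4%) and 3 in Huh7 cells (11.5%), both below the shares of all protein-coding genes. KRT34, a type I keratin of the hair shaft, was listed in both. HepG2 cells added KRT36 and KRT85 of the shaft and KRT74 of the root sheath. Huh7 cells added KRT32 and KRT86 of the shaft. Among the 17 shaft keratins 3 were listed in each cell line. Among the 9 root sheath keratins 1 was listed in HepG2 and 0 in Huh7 cells. The hair keratins listed in neither numbered 20 of 26, beside 13099 of the 19951 protein-coding genes. These hair keratins were KRT31, KRT33A, KRT33B, KRT35, KRT37, KRT38, KRT39, KRT40, KRT81, KRT82, KRT83 and KRT84 of the shaft, and KRT25, KRT26, KRT27, KRT28, KRT71, KRT72, KRT73 and KRT75 of the root sheath.

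The 4 genes KRT23, KRT24, KRT80 and KRT222 were placed in none of these classes. KRT23, a type I keratin, was listed in both cell lines. KRT80, a type II keratin, was listed in HepG2 cells, and KRT222 in Huh7 cells. KRT24 was listed in neither.

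**Figure D2:**
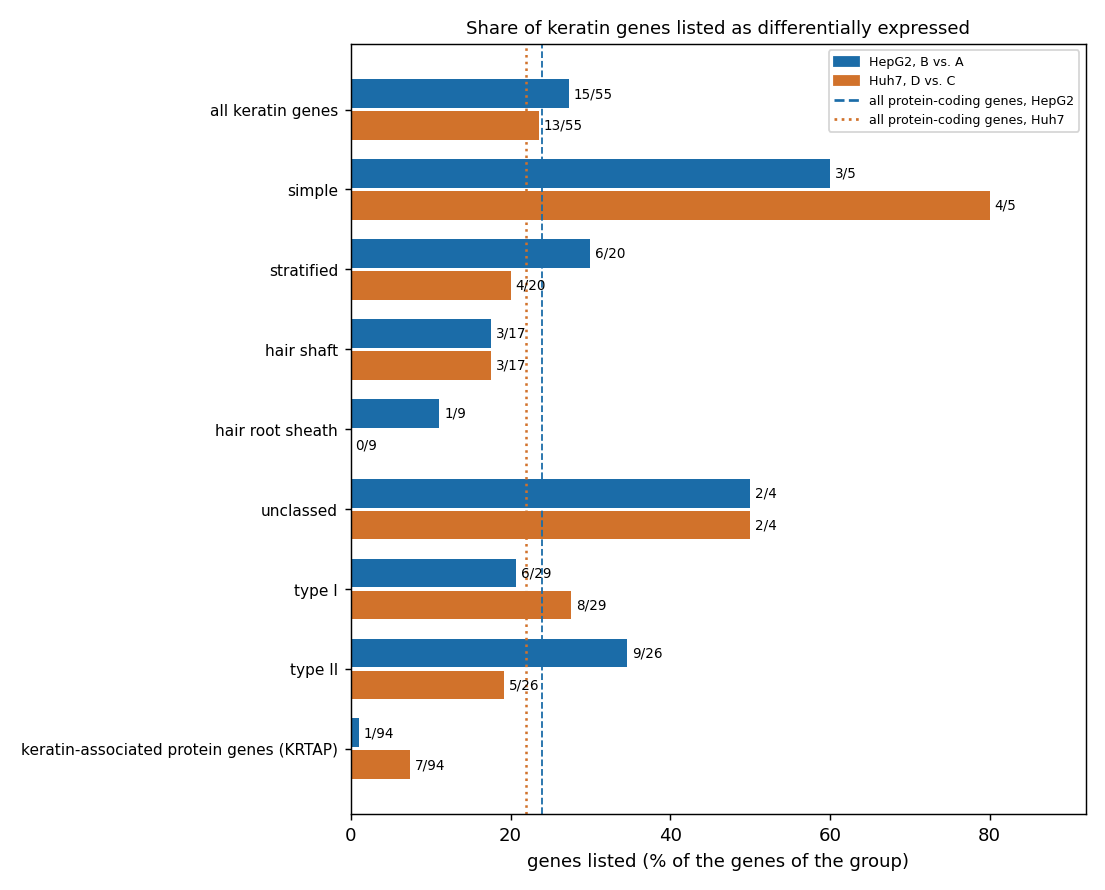
Share of genes listed as differentially expressed (horizontal axis, % of the genes of each group) for the keratin classes, the keratin types and the keratin-associated proteins, in HepG2 (blue) and Huh7 cells (orange); numbers give listed genes over all genes, and vertical lines mark all protein-coding genes, 23.9% and 21.9%. The simple keratins lie at 60% and 80%, the root sheath keratins at 11.1% and 0%.

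By type, 6 of the 29 type I genes (20.7%) and 9 of the 26 type II genes (34.6%) were listed in HepG2 cells. In Huh7 cells the order was the other way, with 8 type I genes (27.6%) and 5 type II genes (19.2%). All protein-coding genes were listed at 23.9% in HepG2 and 21.9% in Huh7 cells. Of each type, 4 genes were listed in both cell lines. The difference between the types was not tested.

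Filament partners were then set side by side for 9 textbook pairs, chosen after the lists had been seen. KRT1 and KRT10 each stood in more than 1 of these pairs, so the pairs are not independent. Single protein-coding genes were listed at 23.9% in HepG2 and 21.9% in Huh7 cells, and no test of the pairs was made. In HepG2 cells both partners were listed in 0 of the 9 pairs, 1 partner was listed in 5 and no partner in 4. KRT8 was listed without KRT18, KRT5 without KRT14, KRT4 without KRT13, and KRT10 without KRT1 or KRT2. In Huh7 cells both partners were listed in 2 pairs, KRT8 with KRT18 and KRT4 with KRT13. There, KRT10 was again listed without KRT1 or KRT2, and no partner was listed in the other 5 pairs. The pair KRT1 and KRT9, the pair KRT6A and KRT16, the pair KRT6B and KRT17 and the pair KRT3 and KRT12 were listed in neither cell line.

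All keratin genes lie in a cluster on chromosome 12, with 27 genes, or on chromosome 17, with 28 genes. The first holds the type II genes and also KRT18, and the second holds the remaining type I genes. In HepG2 cells 9 genes of chromosome 12 (33.3%) and 6 of chromosome 17 (21.4%) were listed, beside 23.9% of all protein-coding genes. In Huh7 cells these numbers were 6 (22.2%) and 7 (25%), beside 21.9%. Listed keratin genes stood next to each other at one end of the chromosome 12 cluster. In HepG2 cells 4 neighbours in a row were listed, KRT4, KRT79, KRT78 and KRT8. In Huh7 cells 3 in a row were listed, KRT78, KRT8 and KRT18, followed by EIF4B, a translation initiation factor gene that was listed as well. At the other end, KRT80 and KRT7 were both listed in HepG2 cells, as was OR7E47P, the gene before KRT80. In Huh7 cells KRT7 and KRT86 were listed there. On chromosome 17 the neighbours KRT20 and KRT23 were listed in both cell lines. Between the ends of the chromosome 12 cluster, KRT85, KRT5 and KRT74 were listed in HepG2 cells, none of them next to another listed keratin gene. The 7 neighbours KRT72, KRT73, KRT2, KRT1, KRT77, KRT76 and KRT3 were listed in neither cell line. How often neighbouring genes elsewhere in the genome were listed together was not examined.

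Promoter sequences are shown for 6 type I genes of the chromosome 17 cluster, since these include neighbours that were and were not listed. Each window runs from 250 bases before to 50 bases after the gene start, 5′ to 3′ on the gene's strand, from RefSeq on build GRCh38.p14. The start is that of the annotated gene and need not be the start used in these cells. Capitals mark the TATA-box letters TATAAA. KRT34 and KRT10 were listed in both cell lines and hold the motif. KRT20 was listed in both cell lines and KRT36 in HepG2 cells, and neither window holds it. KRT31 and KRT35 were listed in neither and hold it.
KRT34 (chr17:41382257-41382556, minus strand): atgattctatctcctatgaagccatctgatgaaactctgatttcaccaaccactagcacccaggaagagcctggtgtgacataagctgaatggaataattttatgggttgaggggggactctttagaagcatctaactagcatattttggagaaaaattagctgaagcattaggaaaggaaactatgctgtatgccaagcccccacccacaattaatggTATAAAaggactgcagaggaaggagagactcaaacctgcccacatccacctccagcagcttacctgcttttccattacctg
KRT10 (chr17:40822565-40822864, minus strand): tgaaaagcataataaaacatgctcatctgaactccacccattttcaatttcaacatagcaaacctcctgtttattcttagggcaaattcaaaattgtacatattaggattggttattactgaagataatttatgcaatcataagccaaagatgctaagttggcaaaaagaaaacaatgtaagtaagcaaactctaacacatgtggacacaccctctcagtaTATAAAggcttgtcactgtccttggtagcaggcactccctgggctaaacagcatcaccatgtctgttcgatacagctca
KRT20 (chr17:40885193-40885492, minus strand): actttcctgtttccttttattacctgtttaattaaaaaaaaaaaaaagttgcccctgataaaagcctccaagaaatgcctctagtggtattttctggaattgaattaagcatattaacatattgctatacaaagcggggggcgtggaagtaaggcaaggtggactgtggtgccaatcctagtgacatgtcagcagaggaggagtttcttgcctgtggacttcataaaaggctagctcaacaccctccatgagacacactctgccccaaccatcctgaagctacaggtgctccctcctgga
KRT36 (chr17:41489861-41490160, minus strand): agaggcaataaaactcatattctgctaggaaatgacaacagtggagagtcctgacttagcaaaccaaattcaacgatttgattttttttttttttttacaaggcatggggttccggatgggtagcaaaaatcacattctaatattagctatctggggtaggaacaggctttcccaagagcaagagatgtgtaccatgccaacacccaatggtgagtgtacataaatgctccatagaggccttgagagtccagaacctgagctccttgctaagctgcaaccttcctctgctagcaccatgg
KRT31 (chr17:41397559-41397858, minus strand): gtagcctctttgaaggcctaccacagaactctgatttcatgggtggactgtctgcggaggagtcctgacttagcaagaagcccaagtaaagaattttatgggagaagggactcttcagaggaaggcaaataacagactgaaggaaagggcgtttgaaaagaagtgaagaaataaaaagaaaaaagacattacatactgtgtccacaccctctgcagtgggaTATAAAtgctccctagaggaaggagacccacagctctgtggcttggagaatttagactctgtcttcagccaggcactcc
KRT35 (chr17:41481102-41481401, minus strand): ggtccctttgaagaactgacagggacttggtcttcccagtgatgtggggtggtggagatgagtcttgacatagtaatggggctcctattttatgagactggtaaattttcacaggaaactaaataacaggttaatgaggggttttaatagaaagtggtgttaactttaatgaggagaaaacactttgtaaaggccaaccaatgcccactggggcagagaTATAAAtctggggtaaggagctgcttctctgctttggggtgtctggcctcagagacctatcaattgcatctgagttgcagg

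The first base of TATAAA lay at -31 from the gene start in KRT34 and KRT35, and at -29 in KRT10 and KRT31. A window was found for 34 of the 55 keratin genes, so 21 genes are not covered. TATAAA was searched on both strands, together with the letters GGGCGG (a GC box) and TGANTCA (an AP-1 motif), which do not overlap it. TATAAA was in 20 of the 34 keratin windows (58.8%), against 11.5% of 35116 RefSeq promoter windows of the same length, which include genes that are not protein-coding. Among the keratin genes it was in 2 of 11 windows of genes listed in either cell line, KRT10 and KRT34, and in 18 of 23 windows of genes listed in neither. The hair keratins showed this most, with 1 of 5 listed genes and 15 of 17 genes that were not listed. In stratified keratins the motif was in 1 of 4 and 2 of 5 windows. The 2 simple keratins covered, KRT8 and KRT20, lack it. GGGCGG was in 6 of the 34 keratin windows (17.6%), against 45% of all windows, with 2 of 11 listed and 4 of 23 that were not. TGANTCA was in 0 of 34, against 7.71% of all windows. The motifs were chosen after the lists had been seen, no test was made, and a match is a match of letters and not a bound site.

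**Figure D3:**
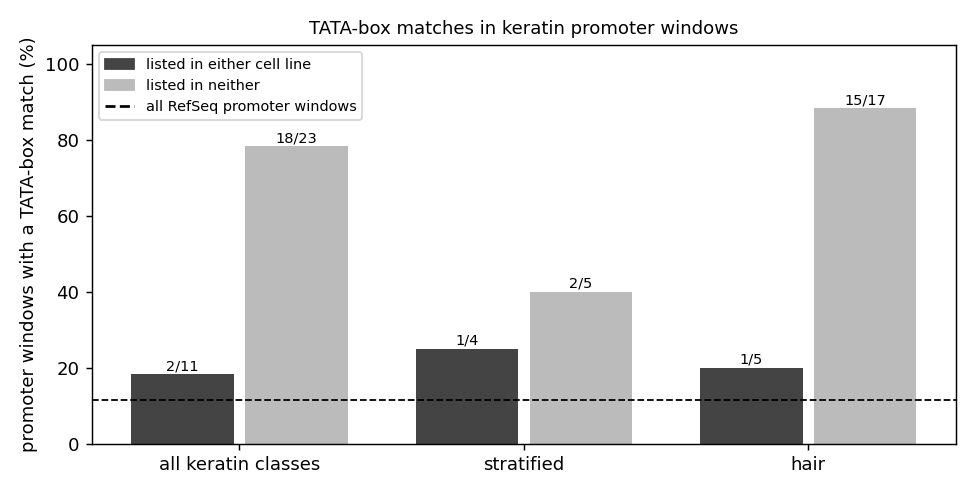
Share of promoter windows that hold TATAAA on either strand (vertical axis, %), for keratin genes listed in either cell line (dark) and in neither (light), over all classes and for the stratified and hair keratins; numbers give windows with the motif over all windows, and the dashed line marks all RefSeq windows, 11.5%. The motif was in 2 of 11 windows of listed genes and in 18 of 23 of the others.

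Reads of near-identical genes cannot always be assigned to a single gene. The share of stretches of 75 bases in a gene's transcripts that also occur in a transcript of another gene was therefore computed for each keratin gene. It was above 0 for 27 genes and at least 20% for 6, namely KRT6A, KRT6B, KRT6C, KRT81, KRT86 and KRT222. Of these, KRT86 and KRT222 were listed, both in Huh7 cells. KRT86 shared 30.7% of its stretches with other genes, of which the largest part was with KRT81 (26.4%), and KRT222 shared 57.1% with AC073508.2, another annotated protein-coding gene. How the reads of these stretches were assigned was not examined. KRT8 shared 6.22% and KRT18 shared 4.33%, mostly with their processed pseudogenes. The genome annotation holds 117 pseudogenes of KRT8 and KRT18. KRT34 shared 3.82%, KRT85 shared 3.12%, KRT5 shared 1.92% and KRT74 shared 0.209%. The other 12 listed keratin genes shared 0%.

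The longest transcript of the keratin genes ran from 1287 bases in KRT33A to 5237 bases in KRT15. The median was 2437 bases for the genes listed in HepG2 cells, 1754 bases for those listed in Huh7 cells and 1929 bases for those listed in neither. The longest predicted proteins of the 3 genes KRT6A, KRT6B and KRT6C were 98.4% to 98.8% identical to each other, and none of these genes was listed. KRT8 and KRT7 were 57.9% identical, and each was the type II keratin closest to the other. KRT222 was the most distant member, with 17.7% identity to its closest keratin, KRT31.

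The listed keratin genes recurred under the same GO terms. Which terms a listed gene stands under is set by its annotation and is not a result of these data. All 15 keratin genes of the HepG2 list and all 13 of the Huh7 list stood under intermediate filament. That term held 37 listed genes of 257 background genes in each cell line (14.4%), against 21.6% and 19.7% for the whole GO background of 22148 genes. Under cornification, the hardening of skin and hair cells, stood 15 keratin genes of 24 listed genes in HepG2 and 12 of 20 in Huh7 cells, from 125 background genes. Under keratinization, which has 268 background genes, stood 26 and 27 listed genes. The term keratin filament held 12 listed genes of 140 in HepG2 cells (8.57%), of which 9 were keratins, and 8 in Huh7 cells (5.71%), of which 7 were keratins. These shares lie below those of the keratin genes themselves. The keratin-associated proteins, which bundle keratin filaments in the hair shaft, were listed for 1 of 94 genes in HepG2 cells (1.06%) and for 7 in Huh7 cells (7.45%).

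Some terms held only a few of the keratin genes. The whole GO background was listed at 21.6% in HepG2 and 19.7% in Huh7 cells. Intermediate filament organization held KRT20 in both cell lines, with 11 and 8 listed genes of 24 background genes (45.8% and 33.3%). Structural constituent of epidermis held KRT10 and KRT36 in HepG2 cells and KRT10 in Huh7 cells. Hepatocyte apoptotic process has 11 background genes. It held KRT8 and PIK3CG in HepG2 cells (18.2%), and KRT8, KRT18, PIK3CG and STK4 in Huh7 cells (36.4%). Tumor necrosis factor-mediated signaling pathway held 32 listed genes of 130 in HepG2 cells (24.6%), KRT8 among them, and 30 in Huh7 cells (23.1%), with KRT8 and KRT18. Extrinsic apoptotic signaling pathway held 65 and 63 listed genes of 237 (27.4% and 26.6%), with the same keratins. Response to starvation held KRT20 in both cell lines, and hemidesmosome assembly held KRT5 in HepG2 cells.

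**Figure D4:**
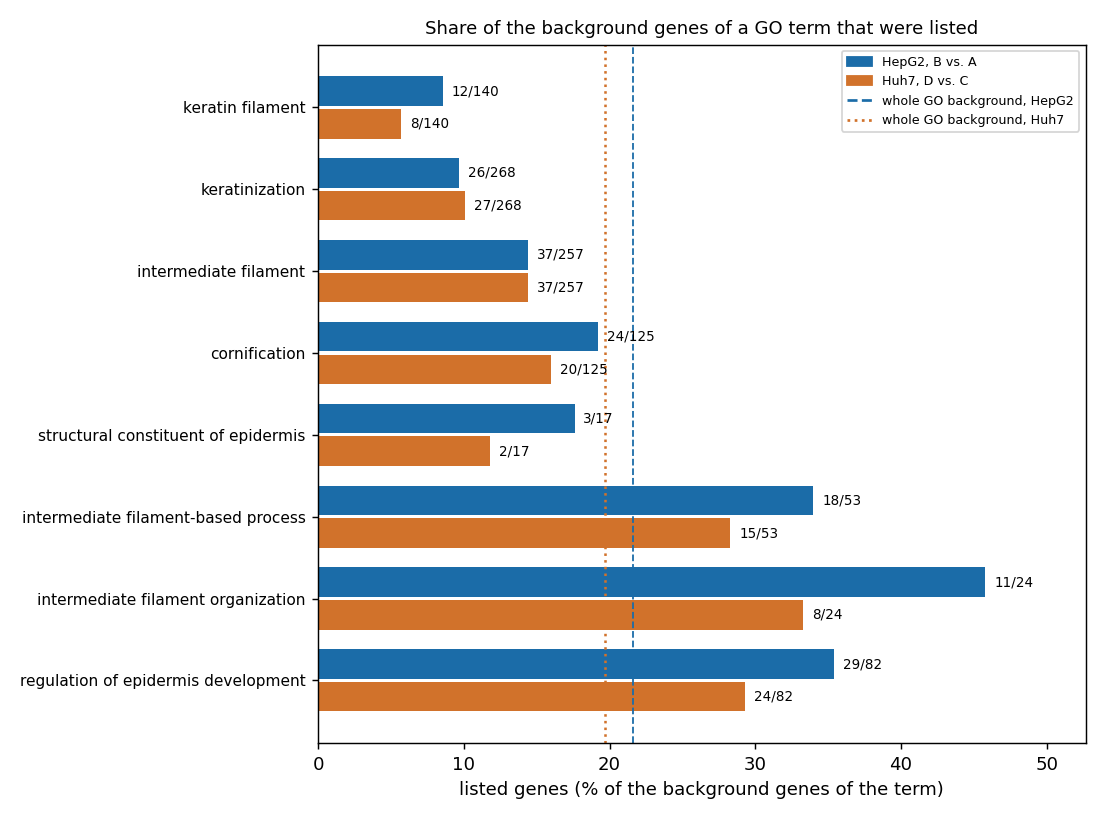
Listed genes as a share of the background genes of 8 GO terms (horizontal axis, %), in HepG2 (blue) and Huh7 cells (orange); numbers give listed over background genes, and vertical lines mark the whole GO background, 21.6% and 19.7%. Keratin filament lies at 8.57% and 5.71% and intermediate filament organization at 45.8% and 33.3%.

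Genes that work with keratins were described from lists chosen with earlier results of these data known. Of 18 genes for intermediate filament proteins other than keratins, 12 were listed in HepG2 (66.7%) and 7 in Huh7 cells (38.9%). Those listed in both were VIM, the mesenchymal filament protein vimentin, DES, the muscle filament protein desmin, PRPH, INA, SYNC and the nuclear lamin LMNB1. HepG2 cells added GFAP, NEFM, NEFH, SYNM, IFFO1 and IFFO2, and Huh7 cells added NES. All protein-coding genes were listed at 23.9% in HepG2 and 21.9% in Huh7 cells, and the keratin genes at 27.3% and 23.6%. The shares of these 18 genes thus lay further above those of all protein-coding genes in both cell lines, a difference that was not tested.

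Desmosomes anchor keratin filaments at cell contacts. Of 14 desmosome genes, 3 were listed in each cell line (21.4%, beside 23.9% of all protein-coding genes in HepG2 and 21.9% in Huh7 cells), with DSG4 in both, PKP3 and PKP4 in HepG2 cells, and DSG3 and PKP2 in Huh7 cells. DSP, which links the filaments to the desmosome, was listed in neither. Hemidesmosomes anchor keratins to the basement membrane. Of 12 genes of plakins or of hemidesmosomes, 4 were listed in HepG2 cells (PLEC, EPPK1, ITGA6 and COL17A1). In Huh7 cells 4 were listed as well (EPPK1, EVPL, CD151 and LAMA3), which is 33.3% in each cell line. Of 26 genes of the cornified envelope and of proteins that organise keratins, 4 were listed in HepG2 cells (TCHH, SPRR4, TGM1 and SCEL) and 2 in Huh7 cells (CDSN and SCEL). These shares, 15.4% and 7.69%, lay below those of all protein-coding genes, a difference that was not tested.

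Of 17 genes of transcription factors of epithelial keratin genes and epithelial differentiation, 8 were listed in HepG2 (47.1%) and 5 in Huh7 cells (29.4%). All protein-coding genes were listed at 23.9% in HepG2 and 21.9% in Huh7 cells, and the difference was not tested. KLF4 and EHF were listed in both. HepG2 cells added TP63, which controls the basal keratins, HOXC13, which controls hair keratins, KLF5, GRHL1, MSX2 and ZNF750. Huh7 cells added GRHL2, SOX9 and FOXN1. Of 19 genes whose products bind or modify keratins, 3 were listed in HepG2 (15.8%) and 4 in Huh7 cells (21.1%). Both shares lay below those of all protein-coding genes, in Huh7 cells only slightly. CASP6, a caspase that cleaves KRT18, and DNAJB6, a chaperone that binds KRT18, were listed in both. TCHP was listed in HepG2 cells, and YWHAB and TGM2 in Huh7 cells.

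**Figure D5:**
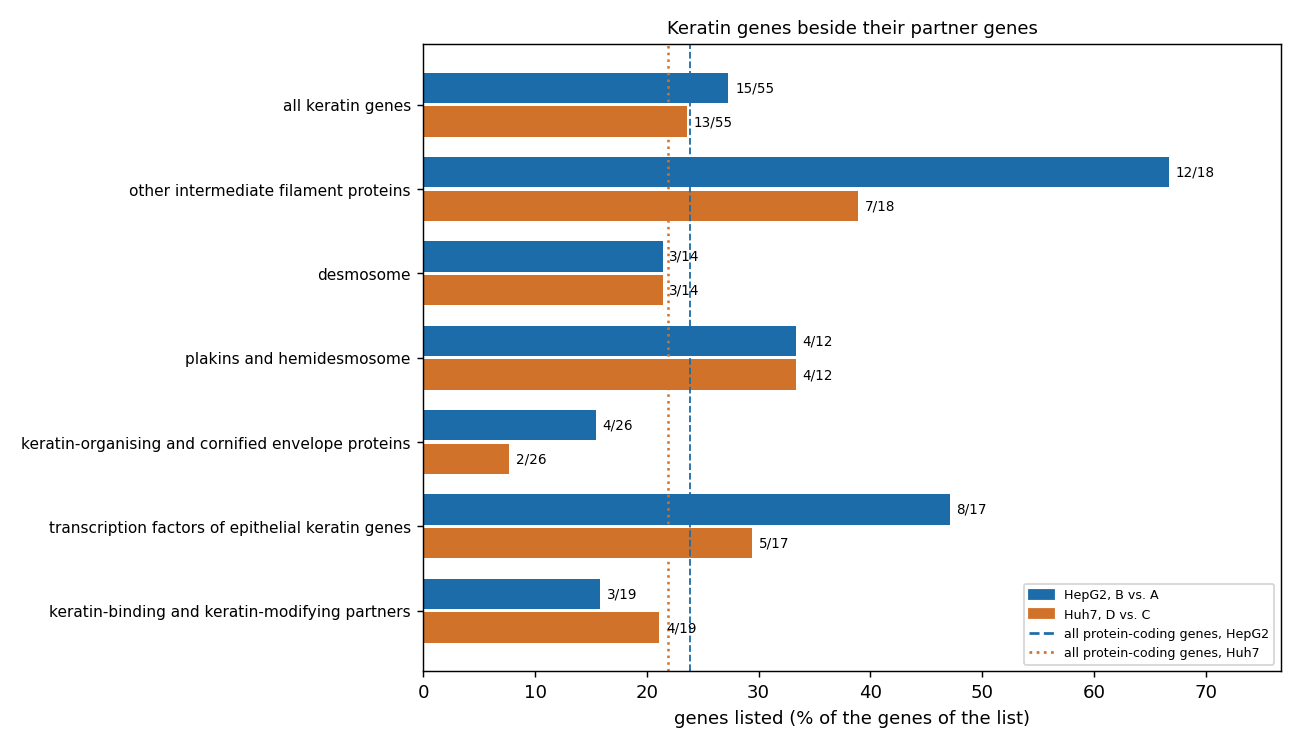
Share of genes listed as differentially expressed (horizontal axis, % of the genes of each list) for the keratin genes and 6 lists of partner genes, in HepG2 (blue) and Huh7 cells (orange); numbers give listed genes over all genes, and vertical lines mark all protein-coding genes, 23.9% and 21.9%. Other intermediate filament proteins lie at 66.7% and 38.9%, the keratin genes at 27.3% and 23.6%.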

How the data were processed

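The values come from 4 deposited tables, a GO table and a KEGG table for each cell line, which cover the mRNAs called differentially expressed after SDT. Per the labels and the methods, the authors removed low-quality reads, computed FPKM and called differentially expressed genes between libraries. Per the labels, the submitters' processing notes name Bowtie2 2.2.8, HISAT2, StringTie 1.3.1 and Cuffdiff 2.1.1. The methods and results of the paper name different programs for the calls. The genome build is not given in the sources used here. The authors tested terms with GOseq and pathways with KOBAS, and deposited the number of listed and of background genes, the gene identifiers and the p-values of these tests. The p-value columns were not used. The other deposited numbers are numbers of genes and not of reads, so no interval was computed. The text of the paper gives a total of clean reads, and the depth of each library is unknown here.

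The identifiers of all rows of a GO table were pooled into 1 list, which gave 4783 genes for HepG2 and 4369 for Huh7 cells, equal to the list size in each table. Of these, 4768 and 4360 were protein-coding genes of GENCODE release 29, matched by Ensembl identifier. Every keratin gene is named, classed by hand. Stretches of 75 bases were compared on the sense strand over all GENCODE transcripts, and proteins were predicted from the longest reading frame and aligned with Biopython 1.88. The reading and pooling of a GO table were tested on simulated data, and the other steps were not. The keratin genes, classes and lists were chosen with earlier results of these data known. A few genes of the partner lists are not reported here.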

Additional observations from a re-analysis of the deposited data

How the results depend on the processing

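Of 41 alternatives over 11 results, 40 stayed within 1.5 times the value reported. The exception was the number of simple keratin genes listed in HepG2 cells, which was 5 in place of 3 when KRT23, KRT24, KRT80 and KRT222 were counted with them, since KRT23 and KRT80 are then added. In Huh7 cells the same change gave 6 in place of 4, which is at the limit of 1.5 times. Several alternatives could not move a count. No pseudogene and none of KRT6A, KRT6B and KRT6C was listed, and moving genes between 2 classes leaves the other classes as they were. The 40 therefore overstate how far the results were tried. The alternatives took lists from GO and KEGG tables together or from the terms of a single ontology, included pseudogenes, took symbols from another gene table, moved the root sheath keratins to the stratified class, left out KRT6A, KRT6B and KRT6C (at least 95% identical to another keratin), or used the authors' GO background, against which 21.6% and 19.7% of genes were listed. No replicate could be left out, as each group has 1 library. No paired analysis was possible because each group has 1 library and the tables hold no level per library. Levels, directions and depth are not in the tables, so a keratin gene that was not listed cannot be called unchanged.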

Other observations

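Of 10 markers of duct-like and progenitor-like epithelial cells, which in the liver are known to accompany KRT7 and KRT19, 5 were listed in HepG2 cells (EPCAM, CD24, SPP1, CLDN4 and CDH1) and 4 in Huh7 cells (SOX9, SPP1, CLDN4 and CDH1). These are 50% and 40% of the markers, beside 23.9% and 21.9% of all protein-coding genes, and the difference was not tested. Of 6 hepatocyte markers, ALB, AFP and HNF4A were listed in both cell lines, and APOA1 and TTR in Huh7 cells. SERPINA1 was listed in neither. This gives 3 of 6 (50%) in HepG2 and 5 of 6 (83.3%) in Huh7 cells. In the KEGG tables, keratin genes appeared once, with KRT18 among the 11 listed genes of 55 under Pathogenic Escherichia coli infection in Huh7 cells. The keratin-associated proteins listed in Huh7 cells were KRTAP19-1, KRTAP19-3, KRTAP19-4, KRTAP19-5, KRTAP20-4, KRTAP21-2 and KRTAP22-1, of which KRTAP21-2 was also listed in HepG2 cells.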
